A study of Mus musculus with 4 samples.

Results

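The 10 genes described here encode proteins that switch mitogen-activated protein (MAP) kinase signaling off: 5 dual-specificity phosphatases (Dusp1, Dusp4, Dusp5, Dusp6 and Dusp10), 3 Sprouty proteins (Spry1, Spry2 and Spry4) and 2 Sprouty-related Spred proteins (Spred1 and Spred2). They were taken by symbol from the deposited table, which lists 54446 genes. All 10 were above 0 FPKM in all 4 libraries and belong to the 17787 genes for which this is so. FPKM give the fragments of a gene relative to its exon length and to the depth of the library, so levels of genes of different length can be compared.

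The study sequenced poly(A) RNA of mammary gland cells from wild type C57BL/6 mice, sorted by FACS as basal or luminal cells and grown as colonies in 3D Matrigel. The medium held epidermal growth factor in every culture, a ligand that itself starts MAP kinase signaling, together with either the vehicle DMSO or 100 μM baicalin, a flavonoid from the roots of Scutellaria. There were 4 libraries, 1 for each cell label and treatment, and neither the age of the mice, nor the time of harvest, nor whether animals were pooled is given in the labels. With 1 library per condition there is no replicate error, and no difference between conditions could be tested.

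Growth factor receptors signal through RAS, RAF and MEK to the kinase ERK, which enters the nucleus and drives growth genes, while stress and cytokines reach the sister kinases JNK and p38. Dual-specificity phosphatases remove the phosphates that make these kinases active, and Sprouty and Spred proteins act further up, between the receptor and RAF. Many of these genes are themselves transcribed when ERK is active, which makes them feedback inhibitors, and in the mammary gland Sprouty proteins are known to restrain branching of the ducts in response to growth factors.

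The labels were compared with cell markers before the genes were read. All 10 markers of basal cells were higher in the libraries labelled luminal than in those labelled basal, with DMSO and with baicalin, and 0 of 10 luminal markers were. The summed FPKM of the basal markers was 1639 and 426 in the libraries labelled basal with DMSO and baicalin, against 5050 and 6067 under the luminal label, and that of the luminal markers was 4573 and 3250 against 1396 and 1214. The markers thus go against the labels, and the libraries are called "labelled basal" and "labelled luminal" throughout. Whether the labels were exchanged was not tested. With baicalin, 3 of 10 basal markers were lower by over 1 on the log2 scale in the library labelled basal. Among them was the keratin Krt5, at 128 FPKM with DMSO and 3.01 with baicalin. Of the luminal markers in that library, only the keratin Krt8 was lower by over 1, at 1573 and 754, a log2 change of -1.06. Among the 17787 genes above 0 in all libraries, 3.33% were lower by over 1 labelled basal and 1.59% labelled luminal. In the library labelled luminal 3 of 10 basal markers were also lower by over 1 with baicalin. They were the contractile genes Cnn1 and Tagln and the oxytocin receptor Oxtr, with log2 changes of -1.52, -1.03 and -2.15. Of the luminal markers there, Krt19 was lower, with -2.03, and Cldn4 higher, with 1.55. Markers of fibroblasts summed to between 3.08 and 16.7 FPKM, markers of endothelial cells to between 0.912 and 4.15, and those of immune cells to 9.0, 52.4, 5.08 and 15.3 in the order given for the genes below, of which the lysosomal Cd68 gave up to 51.5 while the pan-leukocyte gene Ptprc was at 0.014 FPKM or less. The part of cell composition in the values below was not tested, and in these bulk libraries fewer cells of a type and less RNA per cell cannot be told apart.

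Changes were taken as log2((FPKM + 1)/(FPKM + 1)) with a threshold of 1. Between 19356103 and 20648787 fragments were behind each library, recovered from the steps in which low FPKM values fall, so that 1 fragment on a gene with 1 kb of exon was worth about 0.05 FPKM. Ratios of FPKM carry a 95% exact Clopper-Pearson interval from these fragments, which covers counting error only and not the spread between cultures. The fragments of Dusp1 and Spry4 did not come out whole with the exon lengths used, and their intervals are approximate. The same holds for Fosl1 and Hbegf, which are named further below.

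The stretches of 250 bases before the start site of 4 of the genes are shown because these genes span the responses found: Spry1 and Dusp10, each of which passed the threshold in 1 pair of libraries, Dusp6, which was lower with baicalin, and Dusp1, whose stretch holds the most motif matches. They come from RefSeq on GRCm38.p6, are written 5′ to 3′ on the strand of the gene, and carry matches to the motifs named afterwards in capitals. Spry1 is at chr3:37639697-37639946 (plus strand), Dusp10 at chr1:184034131-184034380 (plus strand), Dusp6 at chr10:99262981-99263230 (plus strand) and Dusp1 at chr17:26508473-26508722 (minus strand). The start sites are those of RefSeq transcripts, and for Dusp10 and Dusp1 they lie inside the longer GENCODE span of the gene given below.
Spry1: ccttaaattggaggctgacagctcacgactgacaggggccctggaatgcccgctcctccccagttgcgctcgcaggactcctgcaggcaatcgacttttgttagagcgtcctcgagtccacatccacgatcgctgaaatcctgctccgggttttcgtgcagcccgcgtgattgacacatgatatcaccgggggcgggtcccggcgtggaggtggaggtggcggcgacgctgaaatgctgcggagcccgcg
Dusp10: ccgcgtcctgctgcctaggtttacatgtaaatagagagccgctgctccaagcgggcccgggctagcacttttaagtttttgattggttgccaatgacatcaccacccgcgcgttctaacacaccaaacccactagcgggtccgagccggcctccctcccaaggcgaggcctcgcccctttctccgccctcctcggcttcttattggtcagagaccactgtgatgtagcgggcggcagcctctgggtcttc
Dusp6: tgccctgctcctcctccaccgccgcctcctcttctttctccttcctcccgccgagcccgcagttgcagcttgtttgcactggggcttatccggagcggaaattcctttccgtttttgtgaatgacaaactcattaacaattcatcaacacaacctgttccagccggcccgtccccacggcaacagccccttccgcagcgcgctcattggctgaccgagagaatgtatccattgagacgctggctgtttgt
Dusp1: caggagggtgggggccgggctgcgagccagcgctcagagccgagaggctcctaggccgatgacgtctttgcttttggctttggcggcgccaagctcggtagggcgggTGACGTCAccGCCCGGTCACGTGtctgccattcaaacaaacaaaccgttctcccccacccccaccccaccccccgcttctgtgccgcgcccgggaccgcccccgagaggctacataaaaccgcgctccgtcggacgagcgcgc

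A window was found for 8 of the 10 genes, all but Dusp4 and Spry4, among 32851 windows in all. Searched on both strands, the cAMP response element TGACGTCA was in 1 of the 8, Dusp1, from 143 to 136 bases before the start, and in 1.55% of all windows. The core of the antioxidant response element, TGACNNNGC, was in 2 of the 8 and in 10.2% of all windows. One match lay in Dusp1 on the reverse strand, 133 to 125 bases before the start, overlapping an E-box CACGTG at 126 to 121, and the other lay in Dusp5 at 111 to 103. The E-box was in 1 of the 8 and in 6.02% of all windows. The AP-1 site TGAGTCA (4.46% of all windows), the core of the ATF4 composite site TGATGCAA (0.791%) and the ETS core CCGGAA (12.0%) were in 0 of the 8. The windows of Spry1, Dusp10 and Dusp6, printed above without capitals, held none of the 6 motifs searched, which says only that these letters are not in these windows.

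Each gene below is placed by GENCODE release M21 on GRCm38, and its 4 levels are given in FPKM in the order labelled basal with DMSO, labelled basal with baicalin, labelled luminal with DMSO and labelled luminal with baicalin.

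Among the nuclear phosphatases that stress and growth signals induce, Dusp4 had a ratio of about 2 with baicalin in both pairs of libraries. Dusp4 (ENSMUSG00000031530, chr8:34807297-34819894, plus strand), which acts on ERK, JNK and p38, was at 53.1, 107, 17.4 and 35.7. It was higher with baicalin under both labels, and every library labelled luminal lay below both labelled basal. The ratio of baicalin to DMSO was 2.01 (1.92 to 2.10) in the libraries labelled basal and 2.06 (1.90 to 2.23) under the luminal label. On the log2 scale with a pseudocount of 1 these were 0.994 and 0.9996, both a little under the threshold, and the difference between them was 0.01. With a pseudocount of 0.1 FPKM both passed it. The nearest patterns among genes of at least 5 FPKM in a library were those of Nabp1, a single-stranded DNA binding protein (9.06, 17.2, 2.35 and 5.25), the lysophosphatidylcholine acyltransferase Lpcat1 (17.2, 37.4, 5.47 and 12.9) and Olfr1372-ps1, annotated as a transcribed pseudogene. Their root mean square difference from Dusp4, after centring log2(FPKM + 1) over the 4 libraries, was 0.060, 0.062 and 0.073.

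Dusp1 (ENSMUSG00000024190, chr17:26505590-26562128, minus strand), an immediate early phosphatase of p38, JNK and ERK, was at 22.1, 17.6, 31.6 and 31.1. Both libraries labelled luminal lay above both labelled basal, the reverse of Dusp4. With baicalin the ratio was 0.798 (0.738 to 0.862) in the libraries labelled basal and 0.985 (0.926 to 1.05) under the luminal label, and neither change passed the threshold. Dusp5 (ENSMUSG00000034765, chr19:53529109-53542431, plus strand), a nuclear phosphatase specific for ERK, was at 17.4, 25.3, 10.8 and 12.7. It was higher with baicalin beyond counting error under both labels, by a ratio of 1.46 (1.33 to 1.59) and 1.17 (1.04 to 1.32), without passing the threshold in either. Its exons share 547 bases with the antisense gene AC137853.2, and without a stated strand setting reads of such a pair cannot be told apart.

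Dusp6 is the cytoplasmic phosphatase of ERK and a common readout of ERK activity. Dusp6 (ENSMUSG00000019960, chr10:99263231-99267489, plus strand) was at 56.3, 32.2, 40.1 and 37.2, with the highest and the lowest level both in libraries labelled basal. With baicalin the ratio was 0.572 (0.541 to 0.604) in the libraries labelled basal, a log2 change of -0.79, and 0.928 (0.877 to 0.982) under the luminal label, a log2 change of -0.11. Both were lower beyond counting error and neither passed the threshold. Dusp4 and Dusp6 therefore stood in different proportions in the 4 libraries. The level of Dusp4 over that of Dusp6 was 0.944 (0.898 to 0.992) labelled basal with DMSO, 3.32 (3.16 to 3.49) labelled basal with baicalin, 0.433 (0.401 to 0.467) labelled luminal with DMSO and 0.959 (0.904 to 1.02) labelled luminal with baicalin. The RNA of Dusp4 was thus above that of Dusp6 only in the library labelled basal with baicalin. In the library labelled luminal with baicalin the 2 did not differ beyond counting error. These are levels of RNA, and the amounts of the enzymes were not measured in these libraries.

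Dusp10 (ENSMUSG00000039384, chr1:184013302-184075636, plus strand), which acts on p38 and JNK rather than ERK, was at 22.0, 20.4, 2.84 and 11.0. The library labelled luminal with DMSO stood far below the other 3. Dusp10 rose with baicalin in the libraries labelled luminal by a ratio of 3.87 (3.27 to 4.61), a log2 change of 1.64 that ranked 113 from the top of 17787 genes. In the libraries labelled basal its ratio was 0.927 (0.858 to 1.002), and the interval spans 1. Among the nearest patterns to that of Dusp10 were those of Ccdc9b, at 6.78, 6.22, 0.443 and 2.39 with a root mean square difference of 0.147, and of the tight junction gene Cldn1, at 48.2, 47.8, 9.63 and 32.1 with a root mean square difference of 0.165. Over the 4 libraries Dusp10 had the widest range of log2(FPKM + 1) among the 10 genes, 2.59, followed by Dusp4 with 2.55, whereas without a pseudocount Spry4 had the widest, 3.25, before Dusp10 with 2.96.

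**Figure D1:**
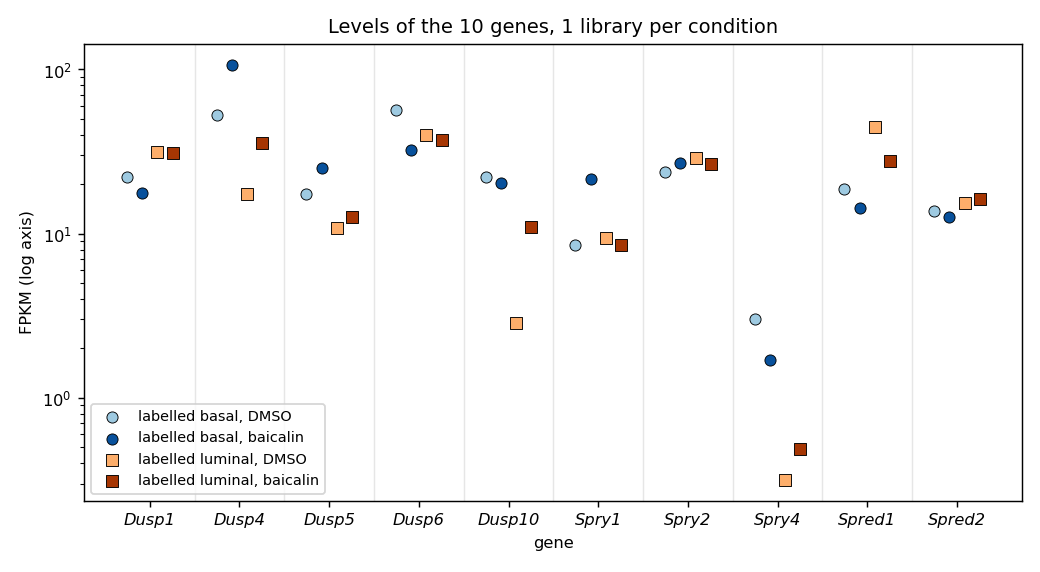
Level of each of the 10 genes in FPKM on a log axis, 1 point per library, with circles for libraries labelled basal, squares for those labelled luminal, and darker fill for baicalin. The lone low squares are Dusp10 with DMSO, at 2.84, and Spry4, at 0.315 and 0.486, and the points of Spry2 and Spred2 lie close together.

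The 3 Sprouty genes did not move together. Spry1 (ENSMUSG00000037211, chr3:37639947-37644598, plus strand), an inhibitor of RAS signaling below growth factor receptors, was at 8.53, 21.5, 9.37 and 8.57. The library labelled basal with baicalin stood above the other 3, which lay within 1 FPKM of each other. Spry1 rose with baicalin in the libraries labelled basal by a ratio of 2.52 (2.27 to 2.80), a log2 change of 1.24 that ranked 206 from the top of 17787 genes. In the libraries labelled luminal its ratio was 0.914 (0.808 to 1.03). Its exons share 710 bases with Gm42922 on the opposite strand, which was at 0.174 FPKM or less in every library.

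Spry2 (ENSMUSG00000022114, chr14:105891947-105896819, minus strand), which has the same role, was at 23.8, 26.9, 29.1 and 26.5, the narrowest range of the 10 genes, at 0.28 on the log2 scale with a pseudocount of 1 and 0.29 without. With baicalin its ratio was 1.13 (1.04 to 1.23) in the libraries labelled basal and 0.911 (0.839 to 0.989) under the luminal label, on opposite sides of 1 but small, and neither passed the threshold. Spry4 (ENSMUSG00000024427, chromosome 18) was the least abundant of the 10 in every library, at 3.01, 1.69, 0.315 and 0.486, from 284, 163, 29 and 48 fragments. Its ratio with baicalin was 0.561 (0.460 to 0.684) in the libraries labelled basal, while under the luminal label it was 1.54 (0.959 to 2.55), so that at this depth a difference was not detectable there. A family member outside the 10, Spry3, was not analysed here.

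The 2 Spred genes encode membrane-associated proteins that bring the RAS inactivator neurofibromin to RAS. Spred1 (ENSMUSG00000027351, chr2:117121374-117182279, plus strand) was at 18.8, 14.4, 44.3 and 27.7. Both libraries labelled luminal lay above both labelled basal, and under each label the baicalin library was the lower one. The ratio with baicalin was 0.766 (0.722 to 0.813) in the libraries labelled basal and 0.625 (0.60 to 0.651) under the luminal label. The log2 changes of -0.36 and -0.66 did not pass the threshold, and the second ranked 828 from the bottom of 17787 genes. Spred2 (ENSMUSG00000045671, chr11:19924375-20024026, plus strand) was at 13.8, 12.6, 15.3 and 16.3, with ratios of 0.912 (0.842 to 0.988) and 1.06 (0.989 to 1.15).

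Counted over the 10 genes, few passed the threshold with baicalin. In the libraries labelled basal 1 of 10 rose, Spry1, and 0 fell, where 2.15% of all 17787 genes were higher by over 1 and 3.33% lower. In the libraries labelled luminal 1 of 10 rose, Dusp10, and 0 fell, where 2.37% of all genes were higher by over 1 and 1.59% lower. One gene of 10 is the smallest share above 0 that the genes can show, so these counts are too few to be read against the background. The median log2 change of the 10 was -0.11 against 0.01 for all genes in the libraries labelled basal, and 0.03 against -0.02 under the luminal label. By counting error, 4 genes were higher, 5 lower and 1 neither in the libraries labelled basal, against 3, 3 and 4 under the luminal label. Of all genes with over 3 fragments in both libraries, 31.2% were higher and 29.1% lower by counting error labelled basal, and 24.7% and 31.5% labelled luminal.

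**Figure D2:**
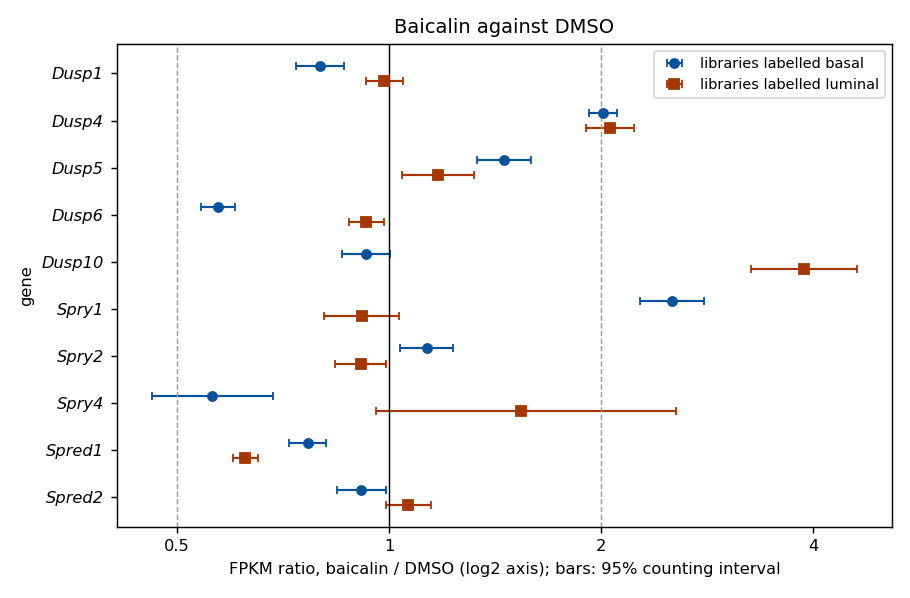
Ratio of FPKM with baicalin to FPKM with DMSO for each gene on a log2 axis, with circles for the libraries labelled basal, squares for those labelled luminal, and bars for the 95% counting interval. Dusp4 lies near 2 under both labels, Spry1 is above 2 in the libraries labelled basal alone (2.52 against 0.914) and Dusp10 in the libraries labelled luminal alone (3.87 against 0.927).

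The 2 genes that passed the threshold differed most between the labels. The log2 change in the libraries labelled luminal minus that in the libraries labelled basal was 1.75 for Dusp10 and -1.35 for Spry1. It was 0.75 for Spry4 and 0.68 for Dusp6, and within 0.31 of 0 for the other 6. These differences could not be tested with 1 library per condition, and label and culture cannot be told apart.

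With DMSO, 4 of the 10 genes differed between the labels by more than the threshold. Spred1 was higher in the library labelled luminal, by a ratio of 2.36 (2.25 to 2.47), and 3 genes were lower there, where 4.71% of all genes were higher by over 1 and 3.86% lower. Dusp10 was lower by 7.76-fold (6.61 to 9.18), Dusp4 by 3.06-fold (2.84 to 3.30) and Spry4 by 9.54-fold (6.50 to 14.5). Of the other 6, Dusp5 and Dusp6 were lower beyond counting error, with ratios of 0.622 and 0.713, and Dusp1, Spry2 and Spred2 were higher, with ratios of 1.43, 1.22 and 1.104. The interval of Spry1 spans 1, at a ratio of 1.099 (0.970 to 1.24). By counting error 4 of the 10 were higher and 5 lower, against 32.9% and 33.4% of all genes with over 3 fragments in both libraries.

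With baicalin, 0 of the 10 genes were higher by over 1 in the library labelled luminal and 2 were lower, where 5.24% of all genes were higher by over 1 and 2.99% lower. The 2 were Dusp4, lower by 2.99-fold (2.84 to 3.15), and Spry1, lower by 2.51-fold (2.26 to 2.78). Spred1 was at a ratio of 1.93 (1.82 to 2.03) and Dusp10 at 0.538 (0.490 to 0.591), both under the threshold. Dusp6 lay on the other side of 1 from its value with DMSO, at a ratio of 1.16 (1.09 to 1.23). By counting error 4 of the 10 were again higher and 5 lower, against 27.1% and 37.3% of all such genes. The comparisons between labels use the same 4 libraries as the baicalin comparisons and are not separate evidence.

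**Figure D3:**
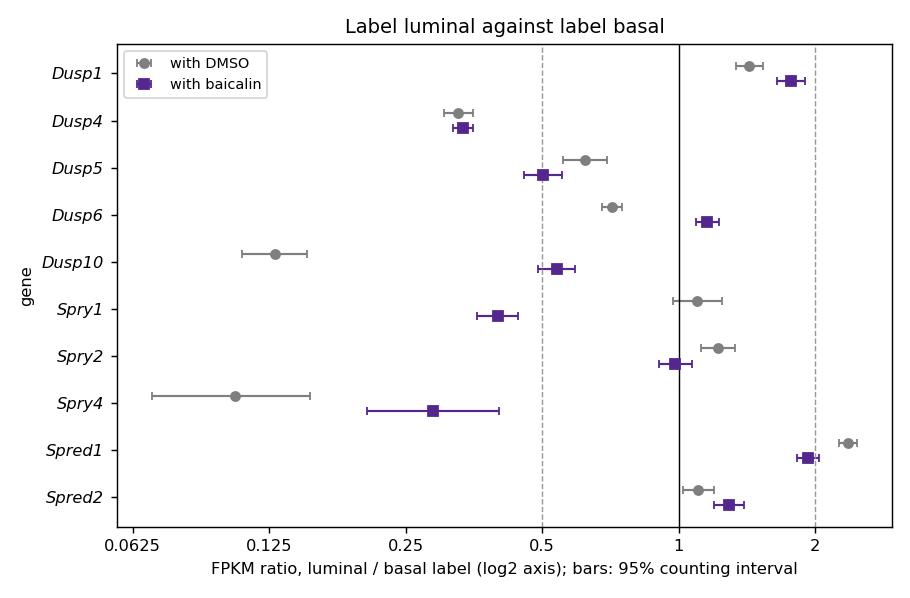
Ratio of FPKM in the library labelled luminal to FPKM in the library labelled basal on a log2 axis, with circles for DMSO, squares for baicalin and bars for the 95% counting interval. Dusp4 keeps its place between the treatments (0.327 and 0.334), whereas Dusp10 (0.129 and 0.538) and Spry1 (1.099 and 0.399) do not.

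Since FPKM are per length, the genes can also be ordered within each library. Labelled basal with DMSO, Dusp6 was highest, followed by Dusp4, and labelled basal with baicalin, Dusp4 was highest, followed by Dusp6. Labelled luminal with DMSO, Spred1 led before Dusp6, Dusp1 and Spry2. Labelled luminal with baicalin, Dusp6, Dusp4 and Dusp1 led, and the first pair did not differ beyond counting error. The other neighbours that did not were Spry2 and Dusp1, and Dusp1 and Dusp10, labelled basal with DMSO, Spry2 and Dusp5, and Spry1 and Dusp10, labelled basal with baicalin, and Spred1 and Spry2, labelled luminal with baicalin.

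The summed level of the 10 genes had ratios nearer to 1 than most of its parts. It was 238.9 FPKM labelled basal with DMSO, 279.4 with baicalin, 201.1 labelled luminal with DMSO and 207.2 with baicalin. Those are ratios of 1.17 and 1.03. The 5 phosphatases summed to 170.9, 202.4, 102.7 and 127.7, with ratios of 1.18 and 1.24. The 3 Sprouty genes summed to 35.4, 50.1, 38.7 and 35.5, and the 2 Spred genes to 32.6, 27.0, 59.6 and 44.0. The Spred sum was thus lower with baicalin under both labels, by a ratio of 0.828 and 0.738. Of its parts, Spred1 had ratios of 0.766 and 0.625, and Spred2 had 0.912 and 1.06, so Spred2 was not lower labelled luminal. Within the sum of the 10, Dusp4 took 22.2% labelled basal with DMSO and 38.2% with baicalin, and 8.64% labelled luminal with DMSO and 17.2% with baicalin. Dusp6 took 23.6% and 11.5% in the libraries labelled basal and 19.96% and 17.97% under the luminal label.

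**Figure D4:**
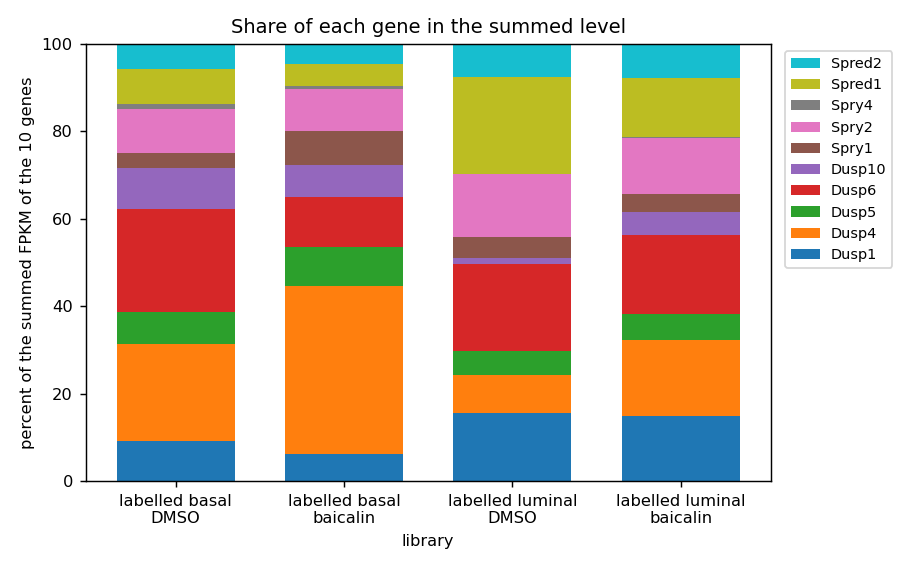
Share of each gene in the summed FPKM of the 10 genes, as a percent, with 1 stacked bar per library. The share of Dusp4 is larger with baicalin under both labels (22.2% to 38.2% and 8.64% to 17.2%), and that of Spred1 smaller (7.86% to 5.15% and 22.0% to 13.4%).

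Of the other phosphatases and Spred proteins of these families, 5 were above 0 in all libraries, and 0 of them passed the threshold with baicalin under either label. A list of 5 is too short for this count to be read against the shares of all genes given above. Dusp7, a cytoplasmic phosphatase of ERK like Dusp6, was at 40.3, 40.1, 30.4 and 38.7. Dusp8, which acts on JNK and p38, was at 5.74, 10.4, 6.25 and 6.48. Dusp16, a JNK phosphatase, was at 19.95, 29.8, 8.67 and 9.61. The log2 changes of Dusp8 and Dusp16 with baicalin were 0.76 and 0.56 labelled basal, and 0.05 and 0.13 labelled luminal. Dusp9 was at 7.24, 4.09, 1.61 and 3.02. Its ratio with baicalin was 0.566 (0.478 to 0.668) labelled basal and 1.87 (1.44 to 2.46) labelled luminal, on opposite sides of 1. Those are log2 changes of -0.69 and 0.62. Spred3 was at 3.20, 4.09, 2.47 and 3.98, with log2 changes of 0.28 and 0.52, and Dusp7 had -0.005 and 0.34. Dusp2, a phosphatase of immune cells, was at 0.145 FPKM or less and listed at 0 in the library labelled basal with baicalin.

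The RNA of the cascade that these inhibitors act on was read in the same way. Of 29 genes from the adaptors through RAS, RAF and MEK to ERK and its substrates, 0 were higher or lower by over 1 with baicalin under either label, with a median log2 change of -0.03 labelled basal and 0.01 labelled luminal. Of 15 other feedback inhibitors of receptors and RAS, 0 passed in either direction. Closest was Cblb, named after its values were seen, at 13.8, 12.6, 11.8 and 24.3. Its ratio labelled luminal was 2.06 (1.97 to 2.17), a log2 change of 0.99 that passed with a pseudocount of 0.1 FPKM or none. Without a pseudocount, 1 gene of this list was also lower by over 1 labelled basal. Among all 17787 genes, 2.15% were higher and 3.33% lower by over 1 labelled basal, and 2.37% and 1.59% labelled luminal. At these shares, lists of 29 and 15 genes are too short for a count of 0 to be read against the background. By sign, 12 of the 15 feedback inhibitors were lower and 3 higher in the libraries labelled basal, with a median of -0.19. Under the luminal label 8 were lower and 7 higher, with a median of -0.08. Of all 17787 genes, 8728 were lower and 9057 higher labelled basal, with a median of 0.01. Labelled luminal, 9670 were lower and 8115 higher, with a median of -0.02.

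Of 22 genes of the JNK and p38 cascade above 0 in all libraries (Mapk10, listed at 0 in 3 libraries, is left out), 1 rose past the threshold in the libraries labelled basal and 2 under the luminal label. Both encode stress-induced proteins that activate the kinases above p38 and JNK. Gadd45a was at 30.9, 141, 7.32 and 46.6 FPKM, and rose by a ratio of 4.55 (4.26 to 4.87) in the libraries labelled basal and 6.37 (5.57 to 7.30) under the luminal label. Gadd45g was at 16.0, 31.9, 7.62 and 17.4, with a log2 change of 0.95 labelled basal, under the threshold, and 1.096 labelled luminal. The medians of the list were 0.13 and -0.02. Among all 17787 genes, 2.15% were higher by over 1 labelled basal and 2.37% labelled luminal.

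Of 20 genes known to be induced through ERK, 1 rose and 1 fell past the threshold in the libraries labelled basal, and 4 rose under the luminal label. Among all 17787 genes, 2.15% were higher and 3.33% lower by over 1 labelled basal, and 2.37% and 1.59% labelled luminal. The growth regulator Myc was at 37.7, 81.5, 14.6 and 40.8, with ratios of 2.16 (2.05 to 2.28) and 2.79 (2.57 to 3.03). It was the only one of the list to pass the threshold under both labels. The AP-1 subunit Fosl1 was at 11.9, 21.5, 2.21 and 9.50, the urokinase receptor Plaur at 24.0, 34.8, 4.01 and 14.1, and the cytokine Lif at 55.3, 64.2, 4.54 and 14.5. These 3 rose in the libraries labelled luminal, with log2 changes of 1.71, 1.59 and 1.49. In the libraries labelled basal they were also higher beyond counting error, with log2 changes of 0.80, 0.52 and 0.21, under the threshold. The gene that fell labelled basal was the early growth response factor Egr3, at 4.95 with DMSO and 1.93 with baicalin, which was named after its values were seen. The AP-1 subunit Fos, also named after its values were seen, was at 30.6, 45.8, 59.7 and 29.8. Its ratio was 1.49 (1.40 to 1.599) labelled basal and 0.499 (0.467 to 0.532) labelled luminal, a log2 change of -0.98 that passed the threshold with a pseudocount of 0.1 FPKM or none. The ETS factors Etv4 (19.9, 12.5, 22.8 and 20.9) and Etv5 (19.7, 14.2, 33.3 and 20.1), read with Dusp6 as targets of receptor signaling and likewise named after their values were seen, were lower with baicalin under both labels without passing the threshold. Most of the list went the other way from Etv4 and Etv5. By sign, 12 were higher and 8 lower labelled basal, and 14 higher and 6 lower labelled luminal. The list's median was 0.12 labelled basal and 0.45 labelled luminal.

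Of 18 growth factor receptors and ligands, 1 rose past the threshold in the libraries labelled basal and 3 under the luminal label. All of these are ligands of the epidermal growth factor receptor. Among all 17787 genes, 2.15% were higher by over 1 labelled basal and 2.37% labelled luminal. Amphiregulin, Areg, the ligand through which hormones drive growth of the ducts, was at 63.2, 158, 21.4 and 37.5, and rose labelled basal by a ratio of 2.51 (2.36 to 2.66). Epigen, Epgn (14.5, 26.5, 6.83 and 25.8), epiregulin, Ereg (12.6, 19.2, 4.09 and 13.7), and Hbegf (18.3, 20.2, 3.70 and 9.31) rose labelled luminal, with log2 changes of 1.77, 1.53 and 1.13. The receptor Egfr, named after its values were seen, was at 14.4, 10.1, 16.3 and 23.7 and did not pass the threshold under either label. These lists were chosen with earlier results of the data known and are described by counts and medians alone.

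**Figure D5:**
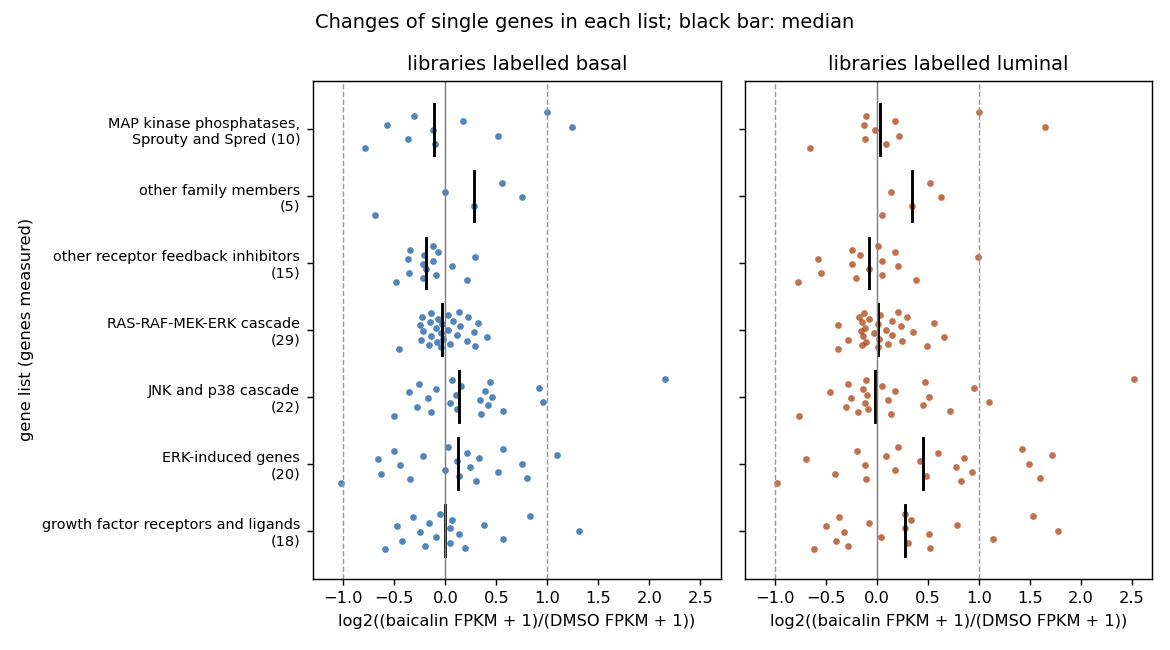
Log2 change of FPKM + 1 with baicalin for every gene of each list, in the libraries labelled basal (left) and labelled luminal (right), with 1 point per gene, a black bar at the list's median and dashed lines at the threshold of 1 in either direction. The points of the RAS-RAF-MEK-ERK cascade all lie between the dashed lines, with medians of -0.03 and 0.01, and the points of the JNK and p38 list past the lines are Gadd45a under both labels and Gadd45g labelled luminal (1.096).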

How the data were processed

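RNA was measured in 4 libraries. Per the study's methods, the authors enriched mRNA with oligo (dT), prepared stranded libraries, aligned reads with HISAT2 to GRCm38, counted fragments with featureCounts and deposited FPKM per gene. The submitters' processing notes also name Bowtie version 0.12.2 and the builds mm8 and GRCm38, with no role. Whether counting used the strand is not given in the sources used here, so overlapping antisense genes are uncertain.

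Gene positions and exon lengths were taken from GENCODE M21 (GRCm38), which gave a length for 54409 genes. FPKM of low genes times exon length fell on whole fragments, within 0.05, for 98.6% to 98.8% of those genes, and gave each library's depth. Genes above 0 in all 4 libraries were kept (17787). Changes were log2 ratios with a pseudocount of 1 FPKM. No test was made between conditions. Exact Clopper-Pearson intervals were computed on the fragments with Python 3.11.15, numpy 2.4.6, pandas 2.3.3 and scipy 1.17.1, and figures were drawn with matplotlib 3.10.9. The code was tested on simulated data.

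All 10 genes are named. Of each other list the genes past the threshold are named, at most 4, and all other family members. The 3 genes nearest in pattern are named for each of the 2 genes of widest range. Exceptions are marked, and 1 gene that this rule selects is not reported here. The genes and lists were chosen with earlier results of these data known. A search for other exons of at least 95% identity over at least 200 bases matched only the genes that overlap Dusp5 and Spry1 on the opposite strand, AC137853.2 and Gm42922. Alternatives were other pseudocounts, filters, scalings and a threshold of 0.5.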

Additional observations from a re-analysis of the deposited data

Results flagged for a closer look

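Spry2 was the only one of the 10 genes whose counting intervals lay on opposite sides of a ratio of 1 under the labels. Its log2 change with baicalin was 0.17 under the basal label and -0.13 under the luminal label. With 1 library per condition this difference was not tested, and neither change passed the threshold of 1.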

How the results depend on the processing

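No result reversed under the 7 alternatives. Dusp4, a little under the threshold in the main values, passed it with a pseudocount of 0.1 FPKM and with none, which brought the genes higher with baicalin to 2 labelled basal and 2 labelled luminal. Of all genes 6.31% and 5.91% were then higher with 0.1, and 9.52% and 8.76% with none. Labelled luminal it was also 2 with scaling to the same sum in each library (TPM) and with centring on the median of all genes (4.04% and 2.54% of all genes). At a threshold of 0.5, baicalin gave 3 higher and 2 lower labelled basal, and 2 higher and 1 lower labelled luminal, against 9.71%, 9.54%, 8.01% and 8.29% of all genes. Between labels with baicalin, the lower genes numbered 4 under TPM, with Dusp5 and Spry4 added (6.09% of all genes), and at the threshold of 0.5 there were 2 higher and 5 lower (12.6% and 12.2%). A minimum of 1 FPKM in all 4 libraries left out Spry4. The counts between labels with DMSO stayed within 1.5 times of the main ones under every alternative. Of the log2 changes of single genes, 145 stayed within counting error and 15 moved beyond it, none with another direction. Spry2 between labels with baicalin, whose interval spans 1, was -0.0236 and became 0.0036 with centring. Spry4, near the lower end of the values, moved most: from -1.61 to -3.25 between labels with DMSO without a pseudocount. Of the counts in the other lists, an alternative chosen after seeing the data, 134 stayed within 1.5 times and 34 did not. No paired analysis was possible because each group has 1 library, and for the same reason no library could be left out. The intervals cover counting error only, so differences between cultures, animals or library preparations cannot be told apart from those of treatment or label.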
